A study of Saccharomyces cerevisiae with 6 samples.

Results

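The 10 genes described here encode regulators of ribosomal protein gene promoters in budding yeast, Saccharomyces cerevisiae: FHL1, IFH1, CRF1, HMO1, RAP1, SFP1, ESA1, YAK1, SCH9 and TOR1. They were taken by symbol from the platform annotation, using only probe sets that name 1 gene, and they are 10 of the 5656 genes named in this way on 6 single-colour Affymetrix yeast arrays. Total RNA came from yeast cells grown at 30 °C in 3 groups of 2 arrays: a double deletion of FHL1 and IFH1, a deletion of FHL1 alone, and wild type (WT). The 2 arrays of a group are called 1 and 2 after the first and second experiment of their labels. Both mutant groups lack FHL1, and the double deletion lacks IFH1 as well. The sources used here do not give strain backgrounds, deletion markers, growth media or the number of clones. No label says that the 2 arrays of a group came from separate cultures, so the p-values measure only the spread between these arrays.

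Ribosomal protein genes are transcribed together when nutrients allow growth. Rap1 binds most of their promoters directly, Hmo1 and the forkhead protein Fhl1 join it there, and Fhl1 serves as the platform on which the coactivator Ifh1 docks. When the TORC1 kinase complex is inhibited, the kinase Yak1 phosphorylates the corepressor Crf1, which then takes the place of Ifh1 on Fhl1, while Sfp1 leaves the nucleus and the kinase Sch9, a direct TORC1 substrate, loses its activity.

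Values are log2 signals deposited by the authors, scaled here so that all arrays share the median of the named genes. They were raised to a floor of 5.63, the 10th percentile, before testing. A difference is in log2 units, is called when limma's p-value adjusted by the Benjamini-Hochberg method is under 0.05, and rests on 2 arrays per group. Arrays do not allow the level of one gene to be set against that of another, and less RNA per cell cannot be told apart from fewer cells that carry it. Of the 10 genes, 8 were tested, and FHL1 and CRF1 were too dim.

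Some arrays stood apart in ways the labels do not name. WT array 1, FHL1 deletion array 2 and double deletion array 1 shared exactly equal values at 502 to 859 probe sets per pair, and are called array set A. The other 3 arrays, set B, shared 1 at most. The 7 genes of the MATa mating type list had a summed signal of 14.28 and 14.07 (log2) on FHL1 deletion array 1 and double deletion array 2, against 9.65 to 9.87 on the other 4 arrays. The 5 MATalpha genes had 9.76 and 10.10 on those arrays, against 13.64 to 14.17 on the others. The arrays of each mutant group thus differ from each other in mating type markers, and the WT arrays do not. The spread within the mutants holds that difference, and the spread within WT lacks it. Both of the arrays with MATa markers belong to set B, whose WT array has MATalpha markers, while set A has MATalpha markers throughout. A difference from WT within set B therefore cannot be told apart from one of mating type. Fits with array set as a block include that difference. The median of 9 bacterial control probe sets was 7.39 to 7.88 on the mutant arrays, against 8.37 and 8.45 on the WT arrays. The differences from WT rest on the scaling to the median of the named genes. They would change with a scaling to these controls, which was not tried.

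In the double deletion, 2 of the 8 tested regulators rose (ESA1 and YAK1), 1 fell (IFH1, one of the deleted genes) and 5 were not called. Across all 4242 tested genes the same comparison called 18.2%, of which 9.78% rose and 8.46% fell. In the FHL1 deletion 2 rose, again ESA1 and YAK1, 0 fell by limma (1, HMO1, at an unadjusted p under 0.05) and 6 were not called, against 21.3% of all tested genes called, with 12.9% higher and 8.42% lower. Between the double deletion and the FHL1 deletion IFH1 was lower and 7 regulators were not called, and 0.0236% of all tested genes were called. That is 1 gene, IFH1 itself. The median difference of the 8 regulators was 0.19 in the double deletion and 0.22 in the FHL1 deletion, with medians over all tested genes of 0.01 and 0.02. Both comparisons with WT use the same 2 WT arrays, so they do not support each other independently.

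**Figure D1:**
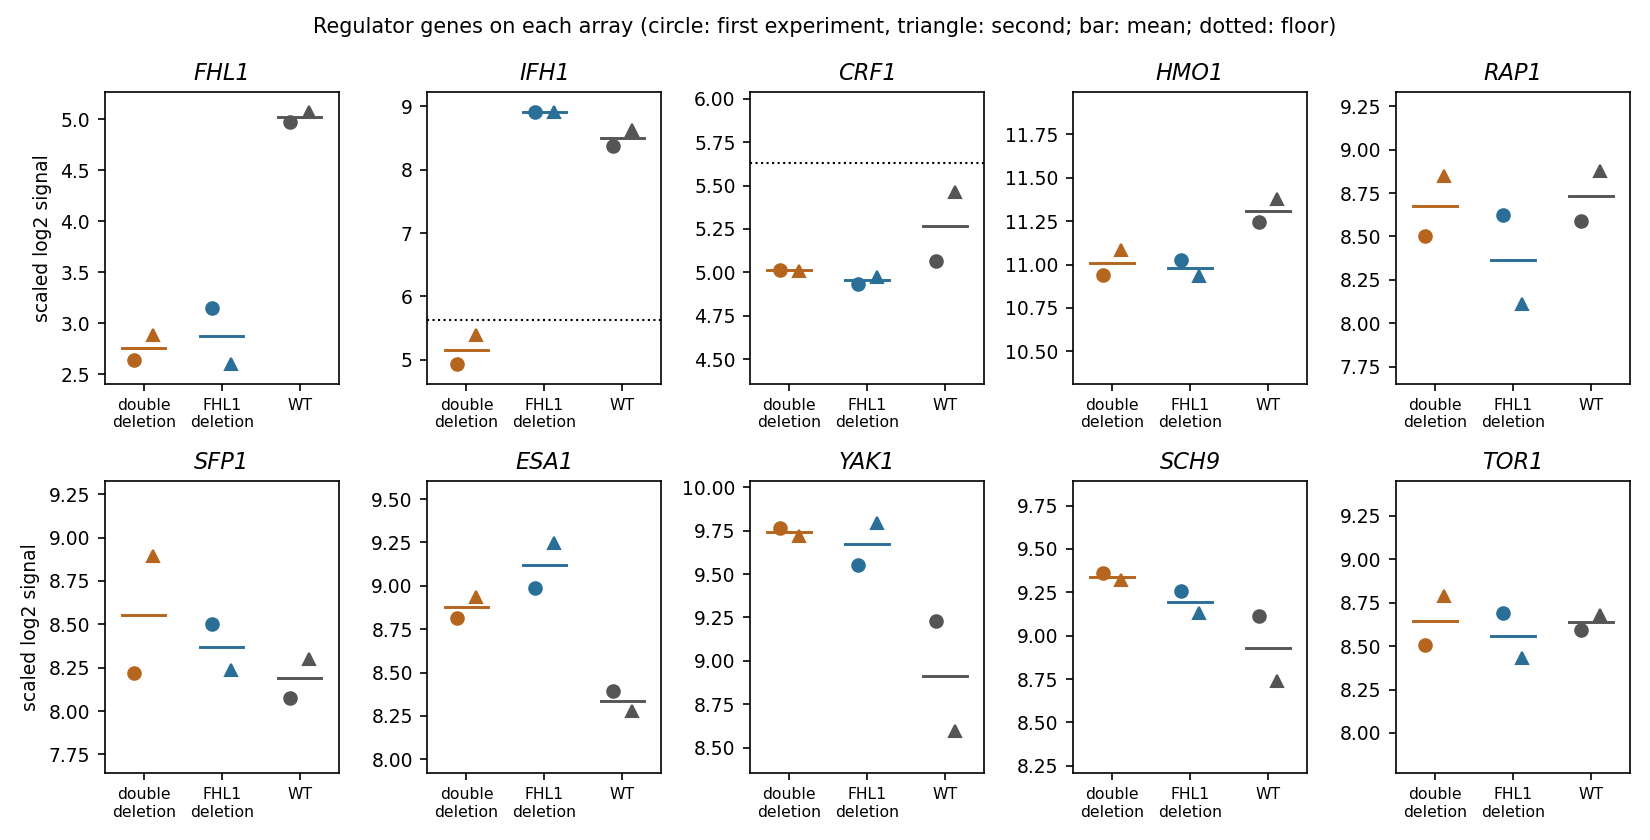
Scaled log2 signal before the floor (y axes, 1 panel per gene, each with its own range) on the arrays of the double deletion, the FHL1 deletion and WT, with a circle for array 1, a triangle for array 2, a bar for their mean and a dotted line at the floor of 5.63 where it falls inside the panel. ESA1 and YAK1 lie higher on every mutant array than on both WT arrays, and IFH1 drops below the floor in the double deletion.

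FHL1 (YPR104C), the deleted forkhead gene itself, had deposited log2 values of 2.66 and 2.89 on the double deletion arrays, 3.18 and 2.67 on the arrays of the FHL1 deletion, against 4.91 and 5.02 on the WT arrays. WT was higher than every mutant array, yet all 6 values lay below the floor, and even the WT values stood only at the 5.15 and 5.32 percentiles of the named probe sets of their arrays. FHL1 was therefore left out of the test, and no size is given for a difference between signals this low. In a fit with no floor and no filter, chosen after seeing the data, it was lower in the double deletion (adjusted p = 0.004) and in the FHL1 deletion (adjusted p = 0.00394), and the mutants were not called apart (adjusted p = 1). That fit called 14.5% of 5656 genes in the double deletion and 19.2% in the FHL1 deletion. FHL1 is deleted in both mutants, so its lower signal there was given by the design and is no separate result.

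IFH1 (YLR223C), the coactivator gene, had scaled values below the floor on both double deletion arrays, 4.93 and 5.39. Its signal was 8.91 and 8.92 with FHL1 alone deleted, against 8.38 and 8.63 in WT. The 3 groups did not overlap. Computed from the floor, the double deletion was at least 7.35-fold lower than WT, with adjusted p = 0.000434. The same bound against the FHL1 deletion was at least 9.75-fold lower, with adjusted p = 0.000339. IFH1 is deleted in the double deletion, so its fall there was given by the design and is no separate result. It passed the filter through its signal in the other groups. The size depends on the floor: the difference from WT was -1.52 with a floor at the 25th percentile and -3.35 with a floor at the 1st percentile.

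In the FHL1 deletion, where its own locus is intact, IFH1 stood 0.41 above WT (SE 0.15, 95% interval 0.05 to 0.77), and adjusted p = 0.0995 did not pass. The difference was 0.54 within set A and 0.28 within set B. With array set as a block adjusted p = 0.03, and with experiment number as a block adjusted p = 0.178. These fits include the double deletion arrays, which lie at the floor and so add no spread. Fitted alone with no floor or filter, the probe set had the same difference with SE 0.20 and adjusted p = 0.185.

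CRF1 (YDR223W) encodes the corepressor related to Ifh1. Its scaled values were 5.01 and 5.01 on the double deletion arrays, 4.93 and 4.97 on the arrays of the FHL1 deletion, against 5.07 and 5.46 on the WT arrays. All 6 lay below the floor, at the 5.6 to 7.52 percentiles of their arrays. Both WT arrays were above all 4 mutant arrays in scaled value, by little for WT array 1. By percentile they were not: WT array 1 was the lowest of the 6, at 5.6, and WT array 2 the highest, at 7.52. Without floor and filter CRF1 did not pass, with adjusted p = 0.412 in the double deletion and adjusted p = 0.29 in the FHL1 deletion.

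HMO1 (YDR174W), which encodes the high-mobility-group protein of these promoters, had 10.94 and 11.08 in the double deletion, 11.02 and 10.93 in the FHL1 deletion, against 11.25 and 11.38 in WT. Both WT arrays lay above all 4 mutant arrays. The differences of -0.30 in the double deletion (SE 0.13, adjusted p = 0.159) and -0.33 in the FHL1 deletion (SE 0.13, adjusted p = 0.113) did not pass. The one in the FHL1 deletion was -0.31 within set A and -0.35 within set B. With array set as a block it had adjusted p = 0.0342, and with experiment number as a block adjusted p = 0.199.

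RAP1 (YNL216W), whose product binds the promoters and also telomeres and silencers, had 8.50 and 8.85 in the double deletion, 8.62 and 8.11 in the FHL1 deletion, against 8.59 and 8.88 in WT. The groups overlapped. The difference from WT was -0.06 in the double deletion (SE 0.22, 95% interval -0.57 to 0.46, adjusted p = 0.885) and -0.37 in the FHL1 deletion (SE 0.22, 95% interval -0.88 to 0.15, adjusted p = 0.273). The value in the FHL1 deletion rests on array 2, without which it was -0.11. With array set as a block it had adjusted p = 0.0298, and with experiment number as a block adjusted p = 0.356.

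SFP1 (YLR403W), the gene of a zinc-finger activator of ribosomal protein and ribosome assembly genes, had 8.22 and 8.89 in the double deletion, 8.50 and 8.24 in the FHL1 deletion, against 8.08 and 8.30 in WT. Double deletion array 2, one of the arrays with MATa markers, was the highest of the 6, and its partner array lay within the WT range. The difference was 0.37 in the double deletion (SE 0.24, adjusted p = 0.322) and 0.18 in the FHL1 deletion (SE 0.24, adjusted p = 0.623). Within the sets the double deletion differed from WT by 0.14 (A) and 0.59 (B).

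ESA1 (YOR244W) encodes the catalytic subunit of NuA4, the histone H4 acetyltransferase complex found at active ribosomal protein promoters. It had scaled values of 8.81 and 8.94 in the double deletion, 8.99 and 9.25 in the FHL1 deletion, against 8.39 and 8.28 in WT. Every mutant array was above both WT arrays. ESA1 rose by 0.54 in the double deletion (SE 0.15, 1.46-fold, adjusted p = 0.0469) and by 0.79 in the FHL1 deletion (SE 0.15, 1.72-fold, adjusted p = 0.0143).

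Within the array sets the rise of ESA1 was 0.42 (A) and 0.66 (B) in the double deletion. In the FHL1 deletion it was 0.86 (A) and 0.71 (B). With every mutant array above both WT arrays, the sign within each set was fixed and adds no support. The 4 arrays with MATalpha markers hold 1 array of each mutant, so that the spread comes from the 2 WT arrays alone and each mutant is assumed to vary like WT. On them the difference was 0.48 in the double deletion (adjusted p = 0.175) and 0.92 in the FHL1 deletion (adjusted p = 0.00346). A block for array set gave ESA1 adjusted p = 0.0136 in the double deletion and 0.00351 in the FHL1 deletion, and with experiment number as a block adjusted p = 0.0984 in the double deletion. The call in the FHL1 deletion was lost without FHL1 deletion array 2 (0.66, adjusted p = 0.0623), WT array 1 (0.84, adjusted p = 0.0547) or WT array 2 (0.73, adjusted p = 0.0865). The call in the double deletion was lost without double deletion array 1 (0.60, adjusted p = 0.109), double deletion array 2 (0.48, adjusted p = 0.186), WT array 1 (0.60, adjusted p = 0.13) or WT array 2 (0.48, adjusted p = 0.194). The mutants differed by -0.24 (SE 0.15, 95% interval -0.60 to 0.11, adjusted p = 0.982), so the smaller rise in the double deletion was not shown to differ from that in the FHL1 deletion.

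YAK1 (YJL141C) encodes the growth-restraining kinase that acts on Crf1. It had 9.77 and 9.72 in the double deletion, 9.56 and 9.80 in the FHL1 deletion, against 9.23 and 8.59 in WT. The mutant arrays were all above WT, and the WT arrays lay further apart from each other than the mutant arrays did. YAK1 rose by 0.83 in the double deletion (SE 0.22, 1.78-fold, adjusted p = 0.0418) and by 0.76 in the FHL1 deletion (SE 0.22, 1.70-fold, adjusted p = 0.0473).

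The rise of YAK1 was smaller in set A than in set B: 0.54 and 1.12 in the double deletion, 0.57 and 0.96 in the FHL1 deletion. In set B the mutant arrays also differ from WT in mating type markers. A block for array set gave YAK1 adjusted p = 0.00737 in the double deletion and 0.00857 in the FHL1 deletion. With experiment number as a block neither call held, with adjusted p = 0.0775 and 0.082. WT array 2 carried much of the difference. Without that array the difference was 0.51 in the double deletion (adjusted p = 0.167) and 0.45 in the FHL1 deletion (adjusted p = 0.202), and without WT array 1 it was 1.15 and 1.08 (adjusted p = 0.0355 and 0.0322). The call in the double deletion was also lost without double deletion array 1 (0.81, adjusted p = 0.118) or array 2 (0.85, adjusted p = 0.111). The call in the FHL1 deletion was also lost without FHL1 deletion array 1 (0.88, adjusted p = 0.0571) or array 2 (0.64, adjusted p = 0.148) and, at 0.76, without double deletion array 1 (adjusted p = 0.054) or array 2 (adjusted p = 0.0539), and after quantile normalization (0.74, adjusted p = 0.0553). Testing all 5656 genes with no filter also ended the calls of YAK1 in the double deletion (adjusted p = 0.109) and in the FHL1 deletion (adjusted p = 0.116), and that of ESA1 in the double deletion (adjusted p = 0.0807).

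All 3 YAK1 probe sets were higher on every mutant array than on both WT arrays. Fitted one by one with no floor or filter, 1 of the 3 passed. The probe set used for the gene had adjusted p = 0.0549 in the double deletion and 0.0508 in the FHL1 deletion. The probe set not used for the gene with the suffix _g_at was higher by 1.07 in the double deletion (SE 0.22, adjusted p = 0.0285) and by 0.98 in the FHL1 deletion (SE 0.22, adjusted p = 0.023). The dimmest one differed by 0.91 (SE 0.27, adjusted p = 0.0676) and by 0.73 (SE 0.27, adjusted p = 0.0951) in the same comparisons. In this fit of each probe set alone, 5.7% of 6504 probe sets were called higher in the double deletion and 10.1% in the FHL1 deletion.

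SCH9 (YHR205W), the gene of the growth-promoting kinase downstream of TORC1, had 9.36 and 9.32 in the double deletion, 9.26 and 9.13 in the FHL1 deletion, against 9.11 and 8.74 in WT. The 3 groups did not overlap, with the double deletion highest. The differences from WT were 0.41 in the double deletion (SE 0.16, 95% interval 0.03 to 0.80, adjusted p = 0.128) and 0.27 in the FHL1 deletion (SE 0.16, adjusted p = 0.282), and neither passed. Within set A they were 0.24 and 0.02, and within set B 0.58 and 0.52.

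**Figure D2:**
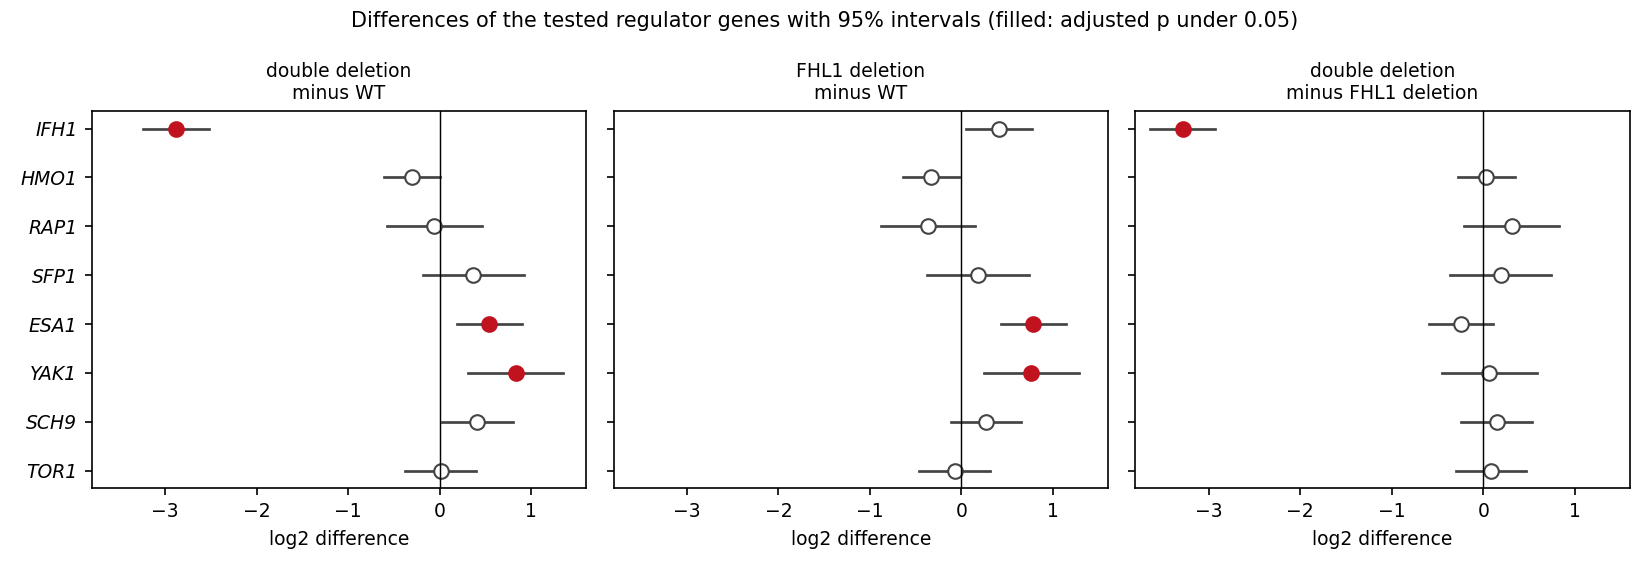
Log2 difference (x axes) of the 8 tested regulators in the double deletion minus WT, the FHL1 deletion minus WT and the double deletion minus the FHL1 deletion, with a point for the estimate, a line for its 95% interval and filled points for adjusted p under 0.05. The IFH1 points against the double deletion are computed from the floor and so understate the size of that difference, ESA1 and YAK1 are filled against WT in both mutants, and in the comparison between the mutants IFH1 alone is filled.

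TOR1 (YJR066W), which encodes a TORC1 kinase, had 9 probe sets that name it alone, and they disagreed. The brightest, used for the gene, had 8.50 and 8.79 in the double deletion, 8.69 and 8.43 in the FHL1 deletion, against 8.59 and 8.68 in WT. The groups overlapped, and the differences were 0.01 in the double deletion (SE 0.16, 95% interval -0.37 to 0.39, adjusted p = 0.972) and -0.08 in the FHL1 deletion (SE 0.16, 95% interval -0.46 to 0.31, adjusted p = 0.776).

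The other 8 TOR1 probe sets were all lower than WT in both mutants. This was seen after the values had been examined, and each was then fitted alone with no floor or filter. In the double deletion the median difference was -0.80, between -0.48 and -1.04, and 1 of the 8 was called, against 7% of 6504 probe sets called lower and 12.7% called in all. In the FHL1 deletion the median was -1.23, between -1.01 and -1.62, and 7 of the 8 were called, against 12.2% called lower and 22.3% in all. Between the mutants they stood 0.39 to 0.68 higher in the double deletion, with 0 called by limma (lowest adjusted p = 0.695) and 1 at an unadjusted p under 0.05, against 0.0154% of probe sets called, which is 1 probe set and was lower. The annotation gives all 8 to 1 gene, and the sources used here do not name the sequence each of them targets, so they are not counted as 8 separate measurements. Of the 8, 2 lay above the floor on all arrays and 3 below it on all arrays, where sizes are uncertain.

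The brighter of those had 7.67 and 7.81 in the double deletion, 7.51 and 6.86 in the FHL1 deletion, against 8.08 and 8.37 in WT. Its difference was -0.48 in the double deletion (SE 0.24, adjusted p = 0.22) and -1.04 in the FHL1 deletion (SE 0.24, adjusted p = 0.026). The dimmer one had 6.76 and 7.38 in the double deletion, 6.82 and 6.19 in the FHL1 deletion, against 7.62 and 8.24 in WT. Its difference was -0.86 in the double deletion (SE 0.33, adjusted p = 0.126) and -1.42 in the FHL1 deletion (SE 0.33, adjusted p = 0.0254). In both, each mutant array lay below both WT arrays. The suffix _s_at marks a design in which probes can be shared by similar sequences, although the annotation names TOR1 alone.

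Of 3 controls for RNA integrity, SRB4 ordered the arrays within a group like most of these TOR1 probe sets, and the other 2 did not in every group. The 3' minus 5' log2 signal of SRB4, which grows as RNA is shortened or labelled less fully towards its 5' end, was 2.70 and 1.89 on the double deletion arrays, 3.09 and 2.39 on FHL1 deletion arrays 2 and 1, and 2.25 and 1.52 on the WT arrays. Within each group, the array with the larger SRB4 value was the lower one in 5 of the 8 TOR1 probe sets in the double deletion, in 8 of 8 in the FHL1 deletion and in 8 of 8 in WT. The probe set used for the gene was also lower on that array in each group. In every group that array was the one of set A, and in the mutants also the one with MATalpha markers. The order by SRB4 therefore cannot be told apart from array set or, in the mutants, from mating type. The 3' minus 5' signal of ACT1 was 1.07 and 1.02 on the double deletion arrays 1 and 2, 1.15 and 1.08 on those of the FHL1 deletion, against 0.965 and 0.931 in WT. That of SPT15 was 1.23 and 1.14 in the double deletion, 1.22 and 1.11 in the FHL1 deletion, against 0.977 and 1.12 in WT. Within groups, both were larger on FHL1 deletion array 1, where the TOR1 probe sets were higher, and that of SPT15 was larger on WT array 2, where they were higher too. Between groups, the ACT1 value was larger on every mutant array than on both WT arrays. The SRB4 and SPT15 values overlapped between mutant and WT arrays. The part of RNA integrity in the TOR1 differences was not tested. Without WT array 2, 0 of the 8 were called in the FHL1 deletion, and the median was -1.06. Without FHL1 deletion array 2 it was 3 of 8, with a median of -1.05.

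In the double deletion, the count of TOR1 probe sets called was 3 of 8 without either FHL1 deletion array and 0 of 8 without any one of the other 4 arrays. Its median stayed between -0.58 and -0.99 with each array left out in turn. The paralog TOR2, which can stand in for TOR1 in TORC1, was measured by its own probe set and had 8.61 and 8.40 in the double deletion, 8.28 and 8.43 in the FHL1 deletion, against 8.42 and 8.22 in WT. Its differences were 0.19 (SE 0.15, adjusted p = 0.444) and 0.04 (SE 0.15, adjusted p = 0.894).

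**Figure D3:**
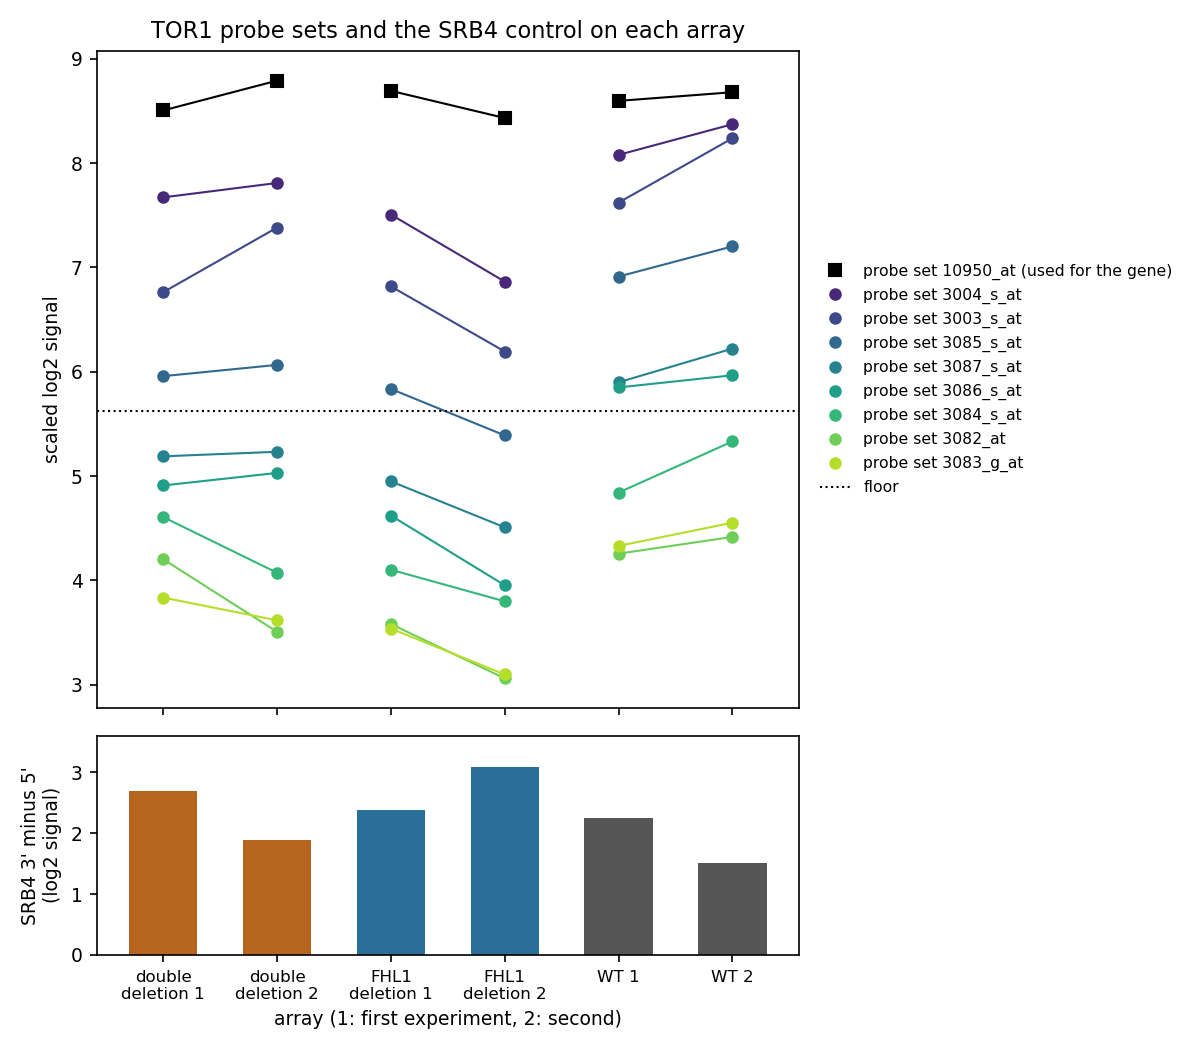
Upper panel: scaled log2 signal before the floor (y axis) of the 9 probe sets that name TOR1 on each array (x axis), black squares for the one used for the gene, coloured circles for the other 8, lines joining the arrays of a group and a dotted line at the floor. Lower panel: the SRB4 3' minus 5' log2 signal on the same arrays, highest on FHL1 deletion array 2 (3.09), where each of the 8 circled probe sets is lowest. Across groups the orders differ. The SRB4 value is larger on WT array 1 (2.25) than on double deletion array 2 (1.89), and each of the 8 is higher on WT array 1.

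Other genes of these regulators' pathways, in 10 lists with 111 genes on the arrays besides the 10 regulators, gave 92 tested genes. In the double deletion 7 rose and 4 fell, together 12% of the 92, and in the FHL1 deletion 7 rose and 6 fell, together 14.1%, against the 18.2% and 21.3% of all tested genes. Their median was -0.02 in both. Between the mutants limma called 0, and 1 had an unadjusted p under 0.05. The counts within single lists below stand beside the same shares of all tested genes, and no list was tested as a set.

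Upstream of TORC1, GTR2 and SLM4, which encode parts of the vacuolar EGO complex that passes amino acid signals to TORC1, rose, and the other 11 of 13 tested genes were not called in either comparison. SLM4 had 9.74 and 9.96 in the double deletion, 9.91 and 10.03 in the FHL1 deletion, against 9.29 and 9.27 in WT. The differences of GTR2 were 0.66 (SE 0.16, adjusted p = 0.0342) and 0.85 (SE 0.16, adjusted p = 0.0131), and those of SLM4 were 0.56 (SE 0.14, adjusted p = 0.0387) and 0.69 (SE 0.14, adjusted p = 0.0189). In the TORC1 complex itself limma called 0 of 5 in either. These 5 include TOR1, by its brightest probe set alone, which disagreed with its others as described above. Of the 5, 1 had an unadjusted p under 0.05 in the FHL1 deletion, LST8, at 0.40 there and 0.26 in the double deletion. In the phosphatase branch, NPR1, the nitrogen permease kinase gene that TORC1 signalling restrains, fell by 0.73 in the double deletion and fell by 0.97 in the FHL1 deletion, and RRD2 rose by 0.69 in the FHL1 deletion.

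The protein kinase A (PKA) pathway acts beside TORC1 on Yak1 and on ribosomal protein promoters. Of 14 tested genes, RAS2 and TPK2 fell and PDE1 rose in the double deletion, and RAS2 and CYR1 fell and PDE1 rose in the FHL1 deletion. Of all tested genes, 18.2% and 21.3% were called in these comparisons, so the counts of this list are near those shares. RAS2, which encodes the GTPase that activates adenylate cyclase, had 8.98 and 8.63 in the double deletion, 8.96 and 8.995 in the FHL1 deletion, against 10.17 and 10.09 in WT. RAS2 in the double deletion fell by 1.32 (SE 0.16, adjusted p = 0.00379), and with FHL1 alone deleted it fell by 1.15 (SE 0.16, adjusted p = 0.00493). CYR1, the adenylate cyclase gene, differed by -0.63 (adjusted p = 0.0958) and fell by 0.93 (adjusted p = 0.0293), and TPK2, a catalytic subunit gene, fell by 0.57 (adjusted p = 0.0458) and differed by -0.49 (adjusted p = 0.0623). PDE1, a cyclic AMP phosphodiesterase gene, rose by 0.95 and by 0.68. The list's medians were -0.11 and -0.22.

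Of the 10 tested NuA4 genes, ESA1 was the 1 called higher. EAF3, which encodes a chromodomain subunit, had 10.70 and 10.72 in the double deletion, 10.74 and 10.83 in the FHL1 deletion, against 10.42 and 10.38 in WT. Its groups did not overlap with WT, and its differences of 0.31 (SE 0.13, adjusted p = 0.134) and 0.39 (SE 0.13, adjusted p = 0.0692) did not pass. The scaffold gene TRA1 fell by 0.67 in the FHL1 deletion (SE 0.15, adjusted p = 0.0256) and differed by -0.33 in the double deletion (SE 0.15, adjusted p = 0.183), and no other NuA4 gene was called. Among 6 tested genes of Rap1 partners, SIR2, the silencing deacetylase gene, fell by 0.92 in the double deletion and fell by 0.93 in the FHL1 deletion, and TYE7, a glycolytic activator gene, fell by 0.67 in the FHL1 deletion. Of the 6 tested high-mobility-group genes, which include HMO1, NHP6B rose by 0.74 in the double deletion and 0.96 in the FHL1 deletion, and the hypoxic repressor gene ROX1 by 1.19 and 1.15. None of the 3 tested forkhead genes other than FHL1 (FKH1, FKH2 and HCM1) was called by limma, and 0 had an unadjusted p under 0.05.

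The list of YAK1 itself, genes downstream of it and stress kinases had 14 tested genes, with YAK1 among those called in both comparisons. IGO1 encodes an inhibitor of a phosphatase in the quiescence programme. It had 11.39 and 11.21 in the double deletion, 11.22 and 11.52 in the FHL1 deletion, against 10.30 and 10.14 in WT. It rose by 1.08 (SE 0.16, adjusted p = 0.00725) and by 1.15 (SE 0.16, adjusted p = 0.00493). SOK2 rose by 0.67 in the double deletion and differed by 0.22 in the FHL1 deletion. The stress activator genes MSN2 and MSN4 were not called, at 0.34 and 0.09 in the double deletion and 0.16 and 0.10 in the FHL1 deletion. Of the 13 tested genes of other promoter factors limma called 0 in either comparison, with 3 at an unadjusted p under 0.05 in the double deletion and 2 in the FHL1 deletion, and with SPT15, the TATA-binding protein gene, at -0.52 (adjusted p = 0.0722) and -0.40 (adjusted p = 0.13).

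**Figure D4:**
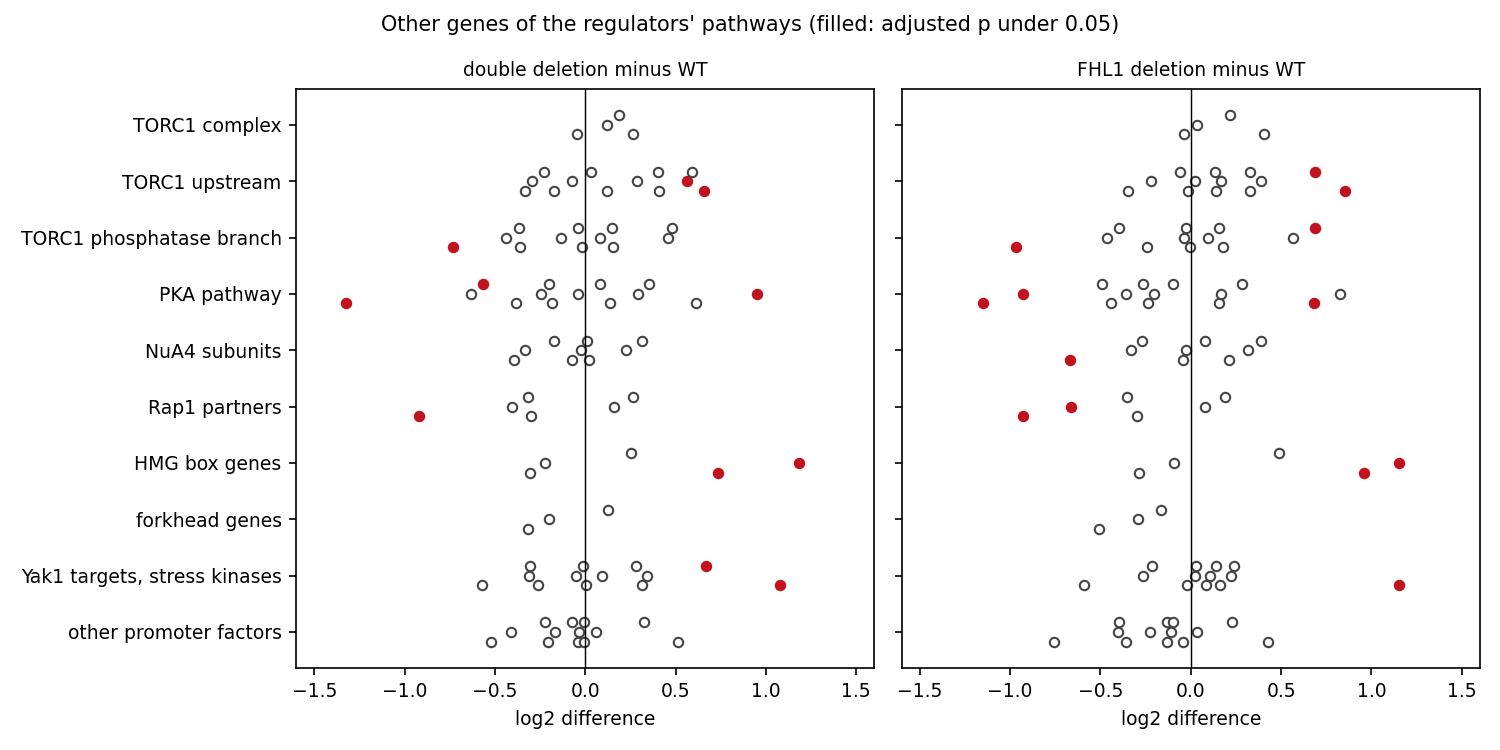
Log2 difference (x axes) of the tested genes in each of 10 lists (y axis), the 10 regulators left out, in the double deletion minus WT and the FHL1 deletion minus WT, with a point per gene and filled points for adjusted p under 0.05. Called genes lie on both sides of 0, with RAS2 at -1.32 and -1.15 furthest to the left and no filled point among the TORC1 complex, forkhead and other promoter factor genes.

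For the 3 called regulators, the tested genes with the most similar profile were found by Pearson's r of scaled values over the 6 arrays, as a description. With IFH1 they were MRP10 (r = 0.978), FMP10 (r = 0.958) and PPA2 (r = 0.954), with 4 of 4241 genes above 0.95, although these genes span a range of 0.45 to 0.58. With ESA1 they were YLR146W-A (r = 0.998), TMH11 (r = 0.996) and LDB18 (r = 0.995), with 132 genes above 0.95. With YAK1 they were UCC1 (r = 0.998), GAT2 (r = 0.997) and UPS2 (r = 0.992), with 63 above 0.95. The arrays of a group share a genotype at the deleted loci, and 2 arrays per group give each correlation few independent points.

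The genes beside the deleted loci were set beside them, chosen after seeing the data. PRE2, the proteasome subunit gene next to FHL1, fell by 2.44 in the double deletion (SE 0.20, adjusted p = 0.00144) and fell by 2.12 in the FHL1 deletion (SE 0.20, adjusted p = 0.00253), while COG4 on the other side differed by 0.01 and 0.12. Next to IFH1, UTP13 differed by 0.10 and 0.05. UCC1, on its other side, rose by 0.66 in the double deletion (SE 0.18, adjusted p = 0.0463) and differed by 0.60 in the FHL1 deletion (SE 0.18, adjusted p = 0.0551), where IFH1 is intact.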

How the data were processed

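The 6 arrays hold 1 log2 expression value per probe set as deposited by the authors (9335 probe sets); their range shows the log2 scale, and the sources used here do not name the summarization, normalization or genome build. Per the platform annotation, 6504 probe sets name 1 gene, 328 several and 2503 none; the 6504 matched the reference annotation and gave 5656 genes, with the brightest probe set used where a gene has several. Array medians over named probe sets were aligned, values under the 10th percentile (5.63) raised to it, and the dimmest 25% of genes left out (4242 tested). limma 3.58.1 (R 4.3.3) fitted the groups (1 mean per group, eBayes with trend, all 6 arrays, 3 residual degrees of freedom), with Benjamini-Hochberg adjustment over all tested genes and 95% intervals from the model; the script was tested on simulated data. The number of arrays limits the precision. Named genes are the 10 regulators, up to 3 genes per list with the smallest p-values, and the 3 most alike genes of each called regulator. Other genes named (MSN2, MSN4, those beside FHL1 and IFH1) were chosen after their values were seen. Regulators and lists were chosen with earlier results of these data known. Arrays were not treated as paired: deviations from group means of same-numbered arrays correlated at -0.38, 0.42 and -0.63 in the 3 comparisons (FHL1 deletion and double deletion against WT, then between the mutants), those of arrays of the same set at 0.38, 0.42 and 0.63, and nothing says that a number marks a shared culture; blocks for either were tried. Alternatives are described at the end. Figures were drawn with matplotlib 3.10.9.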

Additional observations from a re-analysis of the deposited data

How the results depend on the processing

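Of the regulators' differences under 21 alternatives, 450 kept direction and side of the threshold, 26 lost and 3 gained a call, and 16 uncalled ones changed sign. In the FHL1 deletion TOR1 was 0.033 with deposited scaling and -0.21 to 0.055 with single arrays left out (above 0 without FHL1 deletion array 2). In the double deletion RAP1 was 0.023 with deposited scaling and -0.23 to 0.12 with single arrays left out (0.12 without double deletion array 1, 0.084 without WT array 2), and TOR1 was -0.13 on the 4 arrays with MATalpha markers and -0.13 to 0.15 with single arrays left out (-0.13 without double deletion array 2, -0.032 without WT array 1). Between the mutants, single arrays left out gave YAK1 -0.054 to 0.19 (below 0 without FHL1 deletion array 1), HMO1 -0.040 to 0.11 and TOR1 -0.058 to 0.23 (both below 0 without array 2 of either mutant, at -0.012 and -0.045 for that of the FHL1 deletion) and SFP1 -0.15 to 0.52 (below 0 without double deletion array 2), and the MATalpha arrays gave YAK1 -0.031 and SFP1 -0.015. IFH1 kept its calls in the double deletion wherever it was tested; it was not tested with the lowest 50% left out, which gave 0 regulators lower in both comparisons of the double deletion, 0 genes lower between the mutants and 4 related genes higher in the FHL1 deletion. The cause of the other changes was not tested.

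Regulators higher in the FHL1 deletion numbered 1 (against 2) after quantile normalization, with no filter, with no floor and no filter, with only the arrays compared and with the replicate block; in the double deletion they numbered 0 with no filter and with the replicate block, and 1 with no floor and no filter and on the MATalpha arrays. With no floor and no filter FHL1 entered, which gave 1 regulator lower in the FHL1 deletion, while the double deletion had 2. With array set as a block 2 were lower in the FHL1 deletion. Deposited scaling, which moves the median of all genes by 0.11 in the FHL1 deletion, gave 11 related genes higher there. Leaving out single arrays gave 0 to 1 regulators higher in the FHL1 deletion, and up to 2 (from 0) in the double deletion.

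All genes called higher and lower in the FHL1 deletion were 546 and 357. The replicate block gave 296 and 209, and a block for array set 1007 and 760. In the double deletion they were 415 and 359, against 164 and 151 with the replicate block, 815 and 762 with array set, and 240 and 221 with no filter. Between the mutants array set gave 4 higher, and the MATalpha arrays, where this comparison is 1 array against 1 with a spread taken from the 2 WT arrays, 42 higher and 3 lower. Array set pairs FHL1 deletion and WT arrays across their numbers. Leaving out single arrays gave 129 to 516 higher and 123 to 345 lower (FHL1 deletion), 77 to 443 and 76 to 373 (double deletion), and 0 to 33 and 1 to 2 between the mutants.

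Related genes higher and lower numbered 13 and 15 (FHL1 deletion) and 16 and 15 (double deletion) with array set, 3 higher in the double deletion with the replicate block, and 4 higher and 7 lower there on the MATalpha arrays, which gave 1 higher between the mutants. Leaving out single arrays gave 2 to 8 higher and 2 to 6 lower (FHL1 deletion), 1 to 7 and 1 to 4 (double deletion), and 0 to 1 higher between the mutants. The other TOR1 probe sets called lower in the double deletion (1) numbered 0 with the replicate block, 6 with array set, 2 with no trend, 3 with only the arrays compared and 2 on the MATalpha arrays; leaving out single arrays gave 0 to 3 there and 0 to 8 in the FHL1 deletion. Signals of FHL1 and CRF1 below the floor limit what these arrays show of either.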
